A study of Mus musculus with 8 samples.

Results

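Nuclear receptors are transcription factors, most of which are switched by small lipophilic ligands such as fatty acids, oxysterols, bile acids, thyroid hormone, retinoids and steroids. Here 35 genes of this superfamily were chosen by symbol, leaving out the clock receptors Nr1d1 and Nr1d2, and all 35 were among the 17810 genes with deposited counts. RNA-Seq measured them in 8 livers of male mice, 4 WT and 4 HKO. The HKO mice, labelled as miR-33 AlbCRE, carried miR-33 loxP/loxP alleles and Cre recombinase under the albumin promoter, which removes the microRNA in hepatocytes. The level of miR-33 in the other cells of the liver, cholangiocytes among them, was not tested here. WT mice were littermates, and the sources used here do not say whether they also carried loxP alleles. All 8 mice ate from 8 weeks of age, and for 3 months, a diet rich in fat to which no choline was added (CD-HFD). It causes steatosis, and the mice were 5 months old.

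In hepatocytes many of these receptors pair with a retinoid X receptor (RXR) and sense the lipids that the cell takes up, makes or burns. PPARα drives fatty acid oxidation and ketogenesis in the fasted liver, while PPARγ, low in normal liver, drives lipid storage when it rises in steatosis. LXR senses oxysterols, FXR bile acids, and CAR and PXR foreign compounds. HNF4α and LRH-1 (Nr5a2) are largely active without an added ligand and maintain hepatocyte gene expression. SHP (Nr0b2) is a repressor without a DNA-binding domain that FXR induces.

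Because the microRNA removed in HKO mice acts on messenger RNAs that pair with its seed, its mature sequence is shown with the 3'UTR sites found among the receptors. The seed, bases 2 to 8, is in capitals in miR-33-5p, which lies at chr15:82198127-82198147 on the plus strand of GRCm38.p6. Capitals in the sites mark the match.
miR-33-5p: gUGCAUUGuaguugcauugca
Ppara, chr15:85801535-85801541, plus strand: ccaatgttaatCAATGCAcagcactctac
Rarb, chr14:16432012-16432018, minus strand: tccagattgaaAATGCAAggaaaacattt
Nr2f1, chr13:78189563-78189569, minus strand: cactctgcaggAATGCAAcctgagctgca
Rora, chr9:69387262-69387269, plus strand: cccttgattatCAATGCAAtcaggtggtta
Nr2c1, chr10:94196260-94196266, plus strand: gtttgctaagtAATGCAAttatcaaagcc
Nr4a2, chr2:57107590-57107596, minus strand: gtaaatttatcCAATGCAgtttggctttt
The words searched were CAATGCA and AATGCAA, and CAATGCAA holds both. At least 1 match was present in 7 of the 33 receptors tested (21.2%), the one not shown being Nr3c1, against 2037 of the 11554 tested genes with a 3'UTR of at least 50 bases (17.6%). Rora, with 6 matches in 9285 bases, had the most. Hnf4a, Nr5a2 and Pparg had 0 in 2819, 2892 and 204 bases. The annotated 3'UTR of Ppara searched here has 1561 bases, and the deposited gene ends 4032 bases further on, a stretch that was not searched.

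Total counts were 12174339 to 18735785 per liver, and CPM (counts scaled to a common library size after TMM) is used throughout. Over all 12395 genes tested, 5.15% were called by edgeR at an adjusted p under 0.05, 1.71% higher and 3.44% lower in HKO livers, and 8.18% were called by DESeq2. With TMM 212 of these calls were higher and 426 lower, and with total count scaling 118 and 622. In 12.5% of all tested genes the genotypes did not overlap, every HKO liver being above or below every WT liver. The log2 difference is that of HKO over WT livers. Its standard error (SE) was taken as its absolute value divided by the square root of the F statistic of edgeR's quasi-likelihood test. Adjusted p-values come from that test, adjusted by Benjamini and Hochberg's method, unless DESeq2 is named. The median log2 difference over all tested genes was 0.01, and scaling by total counts in place of TMM shifts that median by -0.09. As a check of the tissue, the summed level of 7 hepatocyte markers was 77255 to 110915 CPM in WT and 67151 to 122023 CPM in HKO livers, with Serpina1a, Cps1 and Hpd called higher. Most of that sum was Alb, at 62295 to 96088 CPM in WT and 47064 to 98815 CPM in HKO livers. HKO replicate 2 stood apart, with 16.9 CPM of Krt19 and 16.5 CPM of Epcam, both cholangiocyte markers, against at most 1.075 and 1.02 CPM in the other 7 livers. The sample numbers that end the deposited column names put all HKO libraries before all WT libraries, so that this order and genotype cannot be told apart. Each column name also opens with a number of its own whose meaning is not stated, and most WT numbers lie above all HKO numbers. The sample descriptions give the same number to all WT livers. What these numbers group was not tested. Beyond them the labels say only that each replicate is a separate liver, so p-values measure the spread between these livers. In whole liver, fewer cells of a type and less RNA per cell cannot be told apart.

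Per length of annotated exon, Ppara, Hnf4a and FXR (Nr1h4) had the highest levels, and their order depended on the length taken for Ppara. With the GENCODE exons, Ppara was at 175 ± 2.48 CPM per kilobase (SD, n = 4) in WT and 140 ± 9.15 CPM per kilobase (SD, n = 4) in HKO livers. With the 4032 bases to the deposited gene end added, an alternative chosen after seeing the data, it was at 85.3 ± 1.21 and 68.1 ± 4.46 CPM per kilobase. Hnf4a, at 92.5 ± 3.49 and 118 ± 11.7 CPM per kilobase, was below the first of these and above the second. FXR was at 74.5 ± 5.93 and 76.8 ± 7.48. RXRα (Rxra) was the fourth, at 47.6 ± 5.25 and 55.3 ± 1.29 CPM per kilobase, and it made up 89.2% to 93.9% of the per-length level of the 3 RXR genes in every liver. Behind these came a group whose neighbours overlap in their spread, from the glucocorticoid receptor Nr3c1 (mean 21.1 CPM per kilobase over the 8 livers), PXR (Nr1i2, 20.3), CAR (Nr1i3, 18.7) and LXRα (Nr1h3, 15.9) down to Nr5a2 (14.1), Nr0b2 (13.1), Rora (12.8), Thrb (11.1) and Nr2f2 (10.5). Pparg stood at 6.64 ± 0.84 CPM per kilobase in WT and 2.78 ± 0.89 in HKO livers. The plot of levels per length runs from a mean over the 8 livers of 157 CPM per kilobase for Ppara to 0.0203 for Vdr. As plain CPM, 6 receptors were above 100, 17 between 10 and 100, 8 between 1 and 10, and 4 below 1. With the longer Ppara, its mean over the 8 livers was 76.7 CPM per kilobase, beside 75.7 for Nr1h4. The sum of a gene's exons overstates the length of a gene with many isoforms.

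**Figure D1:**
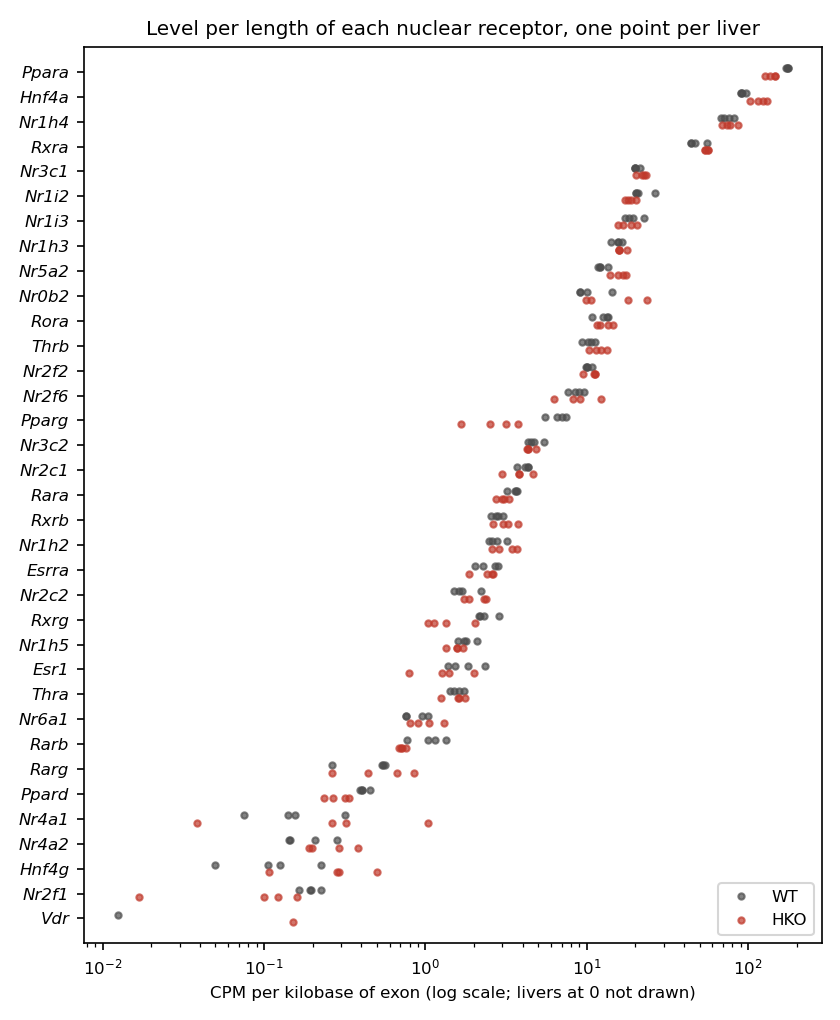
Level of each of the 35 nuclear receptors per length of exon (x axis, CPM per kilobase, log scale), with 1 point per liver, WT in grey and HKO in red, ordered by the mean over the 8 livers. Ppara, drawn with its GENCODE exon length, and Hnf4a lie at the top, Pparg has a gap between the genotypes, and Vdr is above 0 in only 2 livers.

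Of the 33 receptors that passed the expression filter, 4 were called by edgeR (12.1%, against 5.15% of all tested genes): Ppara and Pparg fell, and Hnf4a and Nr5a2 rose. DESeq2 called these and Rxrg. With total count scaling 2 of the 33 were called, both lower, a share near that of all genes, of which 740 of 12395 were called. The number fell to 1, Pparg, without HKO replicate 2, HKO replicate 4, WT replicate 1 or WT replicate 2, and to 2 without HKO replicate 1, WT replicate 3 or WT replicate 4. The genotypes did not overlap in 8 of the 33 receptors, 6 of them lower and 2 higher in HKO livers, against 12.5% of all tested genes. Over the 33, 18 log2 differences were above 0 and 15 below, with a median of 0.04, and 21 were within 0.25 of no difference. Vdr and Hnf4g did not pass the filter. The spread within a genotype was close to that of other genes, with a median coefficient of variation of 11% in WT and 14.3% in HKO livers against 12.7% and 13.4% over all tested genes.

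**Figure D2:**
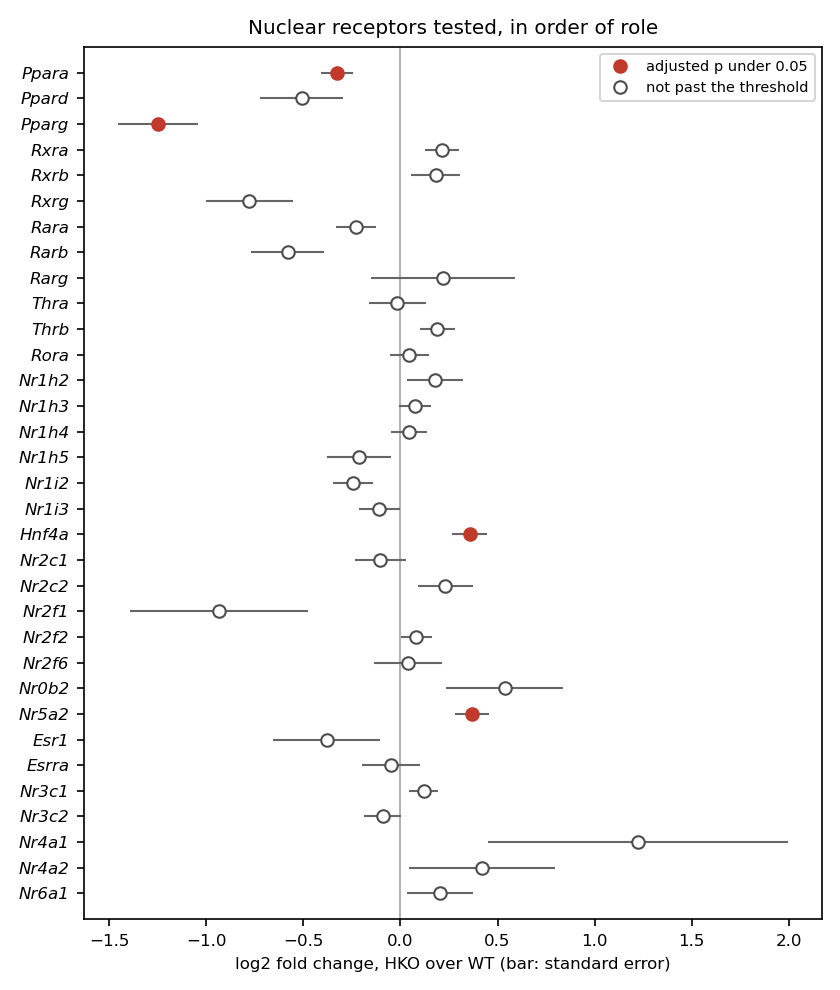
Log2 difference of HKO over WT (x axis) for the 33 nuclear receptors tested, in order of their roles, with bars for the standard error (SE) and filled points for an adjusted p under 0.05. Ppara and Pparg are the filled points below 0 and Hnf4a and Nr5a2 those above it, and wide bars mark the low-count receptors Nr4a1 and Nr2f1.

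Ppara, on chromosome 15 from 85735564 to 85806851 and 3.54 Mb from miR-33, was at 661, 682, 666 and 676 CPM in WT livers. In HKO livers it was at 564, 564, 523 and 492 CPM. Every HKO liver was below every WT liver, and the coefficient of variation between WT livers was 1.42%. The log2 difference was -0.33 (SE 0.08, edgeR adjusted p = 0.0409), a ratio of 0.798. DESeq2 gave an adjusted p of 0.000278. The call was made in 0 of the 8 leave-one-liver-out fits, while the log2 difference stayed between -0.35 and -0.29 in them, and without an expression filter the adjusted p from edgeR was 0.058. Its value was fractional in 6 livers, so some of its reads may have been shared with another gene.

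Pparg, on chromosome 6 from 115360951 to 115490401, had 22.0, 20.8, 16.3 and 19.4 CPM in WT livers. HKO livers had 9.38, 11.04, 7.44 and 4.94 CPM, all below the lowest WT liver. The log2 difference was -1.25 (SE 0.21, edgeR adjusted p = 0.00801), a ratio of 0.42, and the call was made in all 8 leave-one-liver-out fits. Within a liver, Pparg made up 3.07% to 4.13% of the per-length level of the 3 PPAR genes in WT and 1.28% to 2.47% in HKO livers. With the longer Ppara these shares were 6.08% to 8.1% and 2.59% to 4.94%. Their lack of overlap is no second check, since the longer length rescales Ppara alike in every liver. Macrophages also express this receptor. Of 8 markers of Kupffer cells and macrophages 1, Ccr2, was called lower, and their summed level was 63.7 to 159 CPM in WT and 47.9 to 146 CPM in HKO livers, whose part in the value of Pparg was not tested. Ppard, whose PPARδ takes part in oxidation in many tissues, was low throughout, at 2.98, 3.42, 3.03 and 3.02 CPM in WT livers and 2.02, 1.78, 2.54 and 2.38 CPM in HKO livers. Here too the genotypes did not overlap, but the log2 difference of -0.51 was not past the threshold (edgeR adjusted p = 0.215, DESeq2 0.266).

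Hnf4a, on chromosome 2 from 163506857 to 163572907, encodes the receptor that maintains hepatocyte identity. Its levels were 441, 438, 471 and 435 CPM in WT livers. In HKO livers they were 633, 560, 499 and 594 CPM, each above the highest WT liver. The log2 difference was 0.36 (SE 0.09, edgeR adjusted p = 0.0442), a ratio of 1.28. The value of Hnf4a was fractional in all 8 livers, so some of its reads may have been shared with another gene. Nr5a2, on chromosome 1 from 136843584 to 136960448, encodes LRH-1, which with SHP controls bile acid synthesis. WT livers had 70.9, 71.1, 79.8 and 69.5 CPM and HKO livers 99.6, 91.6, 81.8 and 103 CPM, again with no overlap. The log2 difference was 0.37 (SE 0.09, edgeR adjusted p = 0.0343), a ratio of 1.29. Total count scaling left both directions as they were but ended both calls, with adjusted p of 0.159 for Hnf4a and 0.148 for Nr5a2 from edgeR. Leaving out each liver in turn kept the call of Hnf4a in 1 and that of Nr5a2 in 2 of 8 fits. Of the 7 hepatocyte markers 3 were called higher in HKO livers. The summed level of the 7, most of it Alb, overlapped between the genotypes, as given above. The part of these markers in these results was not tested.

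Since Hnf4a and Ppara are compared within a liver, their ratio does not depend on scaling. Per length, Hnf4a was 0.511 to 0.563 of Ppara in WT livers and 0.759 to 0.959 of it in HKO livers with the GENCODE exons. With the longer Ppara the ratio was 1.05 to 1.15 and 1.56 to 1.97, so which gene was higher depended on that length. With either length the genotypes did not overlap in this ratio, which was chosen after its values were seen. That follows from the CPM of both genes given above, and another length multiplies every liver alike, so it is no further test. The ratio describes an unequal change of these receptors under any scaling, and does not say which of them moved.

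**Figure D3:**
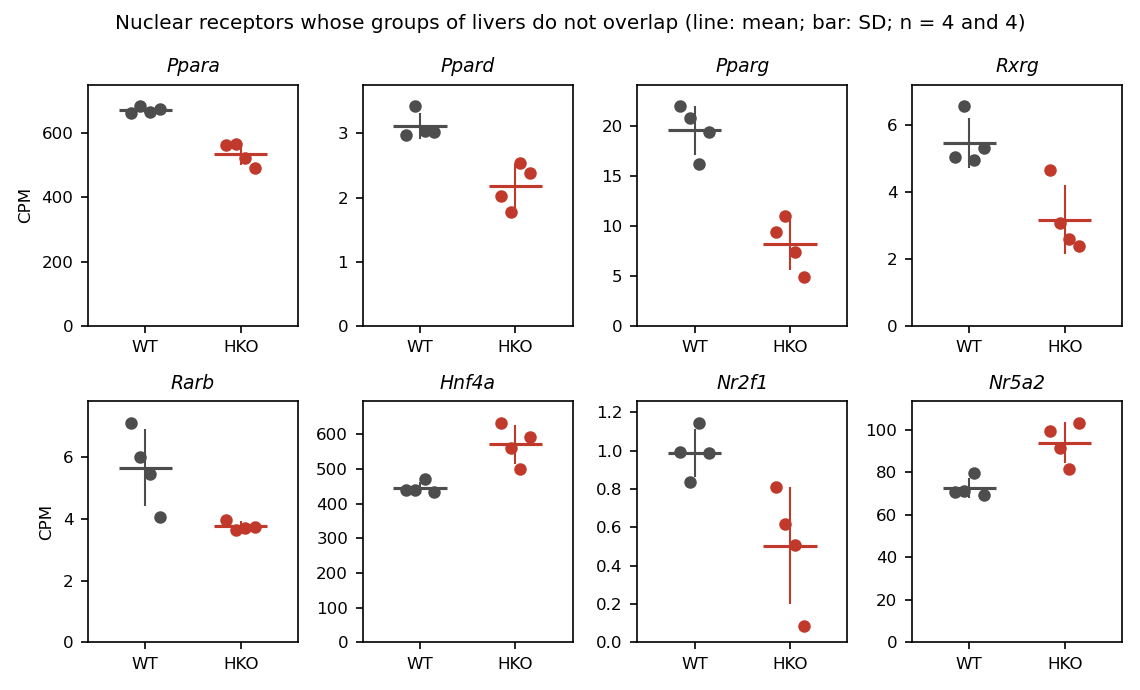
CPM (y axis, from 0) of the 8 nuclear receptors whose WT (grey) and HKO (red) livers do not overlap, with 1 point per liver, lines for the mean and bars for the SD (n = 4 livers each). Hnf4a and Nr5a2 are higher in HKO livers and the other 6 are lower.

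Among the partners, Rxra had 241 to 302 CPM in WT and 295 to 310 CPM in HKO livers, with overlapping genotypes and a log2 difference of 0.21 (edgeR adjusted p = 0.207). Rxrb was at 10.2 to 12.03 and 10.4 to 14.8 CPM. Rxrg was at 5.04, 6.56, 4.97 and 5.32 CPM in WT livers and at 4.66, 3.09, 2.59 and 2.38 CPM in HKO livers. It did not overlap, and its log2 difference was -0.78 (SE 0.23). Rxrg missed the threshold with edgeR (adjusted p = 0.0729) and passed it with DESeq2 (adjusted p = 0.0335).

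The retinoic acid receptors were low. Rara was at 14.1 to 16.1 CPM in WT and 11.95 to 14.4 CPM in HKO livers, and Rarg at 1.12 to 2.39 and 1.13 to 3.64 CPM. Rarb, itself a gene that retinoic acid induces, had 7.11, 6.003, 5.47 and 4.08 CPM in WT livers. Its HKO livers were close together, at 3.98, 3.63, 3.72 and 3.75 CPM, and just below the lowest WT liver. The log2 difference of -0.58 was not past the threshold (edgeR adjusted p = 0.106, DESeq2 0.094). Stellate cells, which store retinoids, also use this receptor. Of 10 markers of stellate cells and fibroblasts 2, Col1a1 and Col3a1, were called lower in HKO livers, and their summed level was 389 to 563 CPM in WT and 321 to 434 CPM in HKO livers, whose part in the value of Rarb was not tested.

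The thyroid hormone receptors showed the liver's preference for the β form, with a per-length mean of 11.1 for Thrb and 1.56 CPM per kilobase for Thra. Thrb was at 69.0 to 83.1 CPM in WT and 76.3 to 98.3 CPM in HKO livers (log2 difference 0.19, edgeR adjusted p = 0.285), and Thra at 6.57 to 7.96 and 5.74 to 8.17 CPM. Rora, an orphan receptor with a role in lipid metabolism and the receptor with the most seed matches, was at 142 to 177 CPM in WT and 151 to 192 CPM in HKO livers (log2 difference 0.04, edgeR adjusted p = 0.864). Thra and Thrb were fractional in all 8 livers.

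Of the 4 receptors of sterols and bile acids, edgeR and DESeq2 called 0, against 5.15% and 8.18% of all tested genes. An unadjusted p under 0.05 from edgeR was found in 0 of the 4, against 2424 of all 12395 tested genes. In only 4 genes a count of 0 says little. LXRα (Nr1h3) was at 35.6 to 41.7 CPM in WT and 39.6 to 44.9 CPM in HKO livers (log2 difference 0.08, edgeR adjusted p = 0.675). LXRβ (Nr1h2) was at 8.35 to 10.7 and 8.62 to 12.4 CPM. FXR (Nr1h4) was at 157 to 188 and 159 to 200 CPM (log2 difference 0.04, edgeR adjusted p = 0.857), and Nr1h5, the second FXR gene, which senses lanosterol in mice, at 4.53 to 5.95 and 3.78 to 4.85 CPM. SHP (Nr0b2) spread widely in HKO livers, with 11.1, 20.4, 12.1 and 26.7 CPM against 10.2 to 16.3 CPM in WT livers, and its log2 difference of 0.54 was not past the threshold (edgeR adjusted p = 0.386).

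Of the receptors for foreign compounds, PXR (Nr1i2) was at 51.7 to 68.1 CPM in WT and 44.3 to 51.7 CPM in HKO livers (log2 difference -0.24, edgeR adjusted p = 0.207). CAR (Nr1i3) was at 76.3 to 99.4 and 68.7 to 90.4 CPM. Vdr, the vitamin D receptor, which hepatocytes barely use, was at 0 in 6 livers, at 1 count in WT replicate 2 and at 11 counts (0.849 CPM) in HKO replicate 2. That liver was also the highest in Hnf4g, with 1.31 CPM against 0.131 to 0.766 CPM elsewhere, and its summed level of 6 cholangiocyte markers was 112 CPM, against 30.9 to 53.2 CPM in the other livers.

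The orphan receptors Nr2c1 and Nr2c2 were at 17.1 to 19.8 and 22.6 to 33.1 CPM in WT livers and at 13.7 to 21.5 and 25.8 to 35.5 CPM in HKO livers. Of the COUP-TF receptors, Nr2f2 was at 84.8 to 92.6 and 81.5 to 97.1 CPM and Nr2f6 at 22.7 to 28.9 and 18.6 to 36.6 CPM. Nr2f1 was near the floor of the libraries, at 0.992, 0.838, 1.14 and 0.986 CPM in WT livers and 0.81, 0.618, 0.507 and 0.0851 CPM in HKO livers, where it rests on 1 to 12 counts. Its genotypes did not overlap, and the log2 difference of -0.93 had an SE of 0.46 (edgeR adjusted p = 0.29). Nr6a1 was at 8.17 to 11.3 and 8.65 to 14.1 CPM.

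Steroid receptors were led by the glucocorticoid receptor, Nr3c1, at 152 to 164 CPM in WT and 155.2 to 179.3 CPM in HKO livers (log2 difference 0.12, edgeR adjusted p = 0.419). The mineralocorticoid receptor Nr3c2 was at 27.9 to 35.1 and 27.7 to 31.4 CPM. The estrogen receptor Esr1 was at 18.9 to 32.1 and 10.8 to 27.3 CPM, and the estrogen-related receptor Esrra, a partner of PGC-1α in mitochondrial gene expression, at 8.94 to 12.4 and 8.23 to 11.6 CPM. The immediate early receptors Nr4a1 and Nr4a2 were at 0.263 to 1.12 and 0.579 to 1.14 CPM in WT livers. In HKO livers Nr4a1 ran from 0.135 to 3.66 CPM and Nr4a2 from 0.766 to 1.54 CPM. In all, the genotypes overlapped in 25 of the 33 receptors tested, and their adjusted p from edgeR ran from 0.207 for Rxra and Nr1i2 to 0.971 for Thra.

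Receptors act through coregulators, and of 22 of these tested (of 23 listed) 1 was called, 4.55% against 5.15% of all genes. The median log2 difference over the coregulators was 0.04. Ppargc1a, which encodes PGC-1α and was named after its values were seen, was at 19.9 to 21.7 CPM in WT livers. It reached 34.6 CPM in HKO replicate 4 against 16.4 to 20.4 CPM in the other HKO livers. Its log2 difference of 0.09 was not past the threshold (edgeR adjusted p = 0.868, DESeq2 0.886).

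Target genes of PPARα moved in 1 direction. Of the 25 listed and tested, 15 fell and 0 rose, 60% against 3.44% of all genes called lower. This list and those below were chosen with earlier results of these data known, so their shares are descriptions and not independent tests. DESeq2 called 19, also all lower, and 9 were called by edgeR without WT replicate 2. The median log2 difference was -0.70 against 0.01 over all tested genes, and 24 of the 25 had a log2 difference below 0. Acaa1b, a peroxisomal thiolase, fell from 683 ± 95.6 CPM (SD, n = 4) to 228 ± 14.99 CPM (SD, n = 4), a log2 difference of -1.59 (SE 0.11, edgeR adjusted p = 5.55e-05). Vnn1, a pantetheinase, fell from 241 ± 32.3 to 59.4 ± 12.5 CPM, a log2 difference of -2.02 (edgeR adjusted p = 0.000216). Pex11a, which divides peroxisomes, fell by 1.45 on the log2 scale (edgeR adjusted p = 0.00092). All 3 were called in all 8 leave-one-liver-out fits. Acaa1b was fractional in all livers, and reads may have been divided between it and its close paralog Acaa1a. In 21 of the 25 the genotypes did not overlap, against 12.5% of all tested genes. Creb3l3, a partner of PPARα, was 166 ± 10.1 in WT and 166 ± 8.12 CPM in HKO livers and was named after its values were seen.

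PPARγ targets that were called moved in 1 direction as well. Of 10 tested (of 12 listed), 6 fell and 0 rose, 60% against 3.44% of all genes called lower. Their median log2 difference was -1.66. This list too was chosen with earlier results of these data known. DESeq2 called 7, all lower, and called 8.18% of all genes in either direction. Cidea, with no more than 3 counts in any HKO liver, has the lowest log2 difference of the list. Setting it to the bound that 3 counts give leaves it below the median, so the unchanged median is no check. Mogat1, an acyltransferase of triglyceride synthesis, was at 8.27, 15.3, 5.12 and 6.51 CPM in WT livers and at 0.742, 0.926, 0.394 and 0.341 CPM in HKO livers. Its log2 difference was -3.86 (SE 0.44, edgeR adjusted p = 0.00157). Cidec, which builds large lipid droplets, was at 25.1, 54.7, 24.4 and 21.4 CPM in WT livers and at 3.24, 1.16, 0.507 and 0.17 CPM in HKO livers, a log2 difference of -4.60 (SE 0.70, edgeR adjusted p = 0.0176). The fatty acid translocase Cd36 fell by 2.32 and the glycerol-phosphate dehydrogenase Gpd1 by 0.81 on the log2 scale (edgeR adjusted p = 0.0142 and 0.00345). Of these 4, Cidec was called in 7 and the others in all 8 leave-one-liver-out fits. Lpl, which macrophages and muscle also express, and Fabp4 did not pass the threshold, with adjusted p of 0.92 and 0.519 from edgeR.

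**Figure D4:**
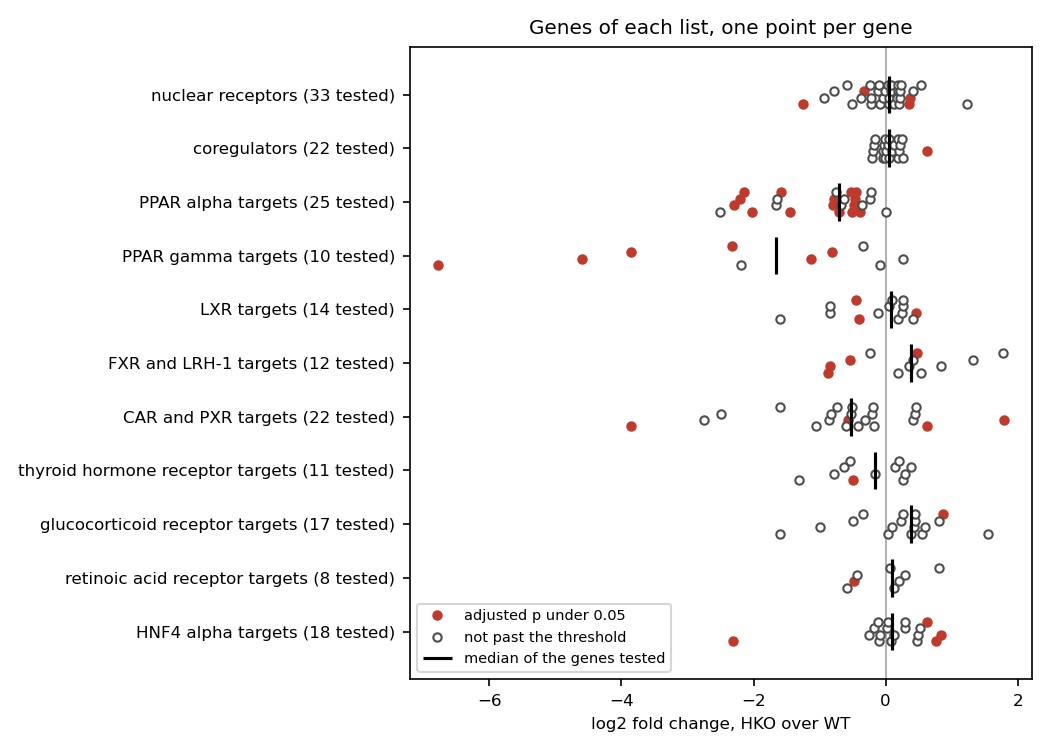
Log2 difference of HKO over WT (x axis) of the tested genes in each list (y axis), with 1 point per gene, filled where the adjusted p from edgeR was under 0.05, and a black line for the median. Called genes of the PPARα and PPARγ lists lie below 0, whereas the lists of HNF4α, LXR, FXR with LRH-1, and CAR with PXR have called genes on either side.

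PPAR-RXR pairs and HNF4α bind a direct repeat of the half-site AGGTCA with 1 base between the copies, called DR1. Windows of 250 bases before to 50 after the RefSeq gene start were searched on both strands, with at most 2 mismatches. For some genes with a match, among them Cd36, Rxra and Nr1h4, that start lies inside the deposited gene. A match was found in 384 of 9921 tested genes with a window (3.87%), in 3 of 19 PPARα targets, 2 of 5 PPARγ targets, 3 of 13 HNF4α targets and 3 of 31 receptors, which were Nr1h4, Rxra and Thrb. The called targets with a match before the start are shown because they include genes that fell (Fabp1, Cd36, Mogat1) and a gene that rose (F7). Capitals mark the match, given in the direction of the gene.
Fabp1, chr6:71199792-71199844, plus strand: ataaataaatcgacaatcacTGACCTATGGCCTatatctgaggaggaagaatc
Cd36, chr5:17835927-17835979, minus strand: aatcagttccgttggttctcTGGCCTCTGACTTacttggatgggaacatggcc
Mogat1, chr1:78510989-78511041, plus strand: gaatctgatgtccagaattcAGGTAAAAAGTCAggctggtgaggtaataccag
F7, chr8:13025980-13026032, plus strand: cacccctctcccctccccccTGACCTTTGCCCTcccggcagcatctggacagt
Fabp1 and F7 had 1 mismatch and the other 2 genes had 2. Slc25a20, which also fell, has its match just after its start. A match is a description of the letters and not evidence of binding. Fabp1, the liver's fatty acid binding protein, fell by 0.70 on the log2 scale (edgeR adjusted p = 0.0338) and was called in 2 of 8 leave-one-liver-out fits.

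HNF4α targets moved in both directions. Of 18 tested, 3 rose and 1 fell, 22.2% called against 5.15% of all genes, with a median log2 difference of 0.10. DESeq2 called 6 higher and 1 lower. F7, coagulation factor VII, rose from 39.2 ± 4.27 CPM (SD, n = 4) to 60.3 ± 5.26 CPM (SD, n = 4), a log2 difference of 0.62 (SE 0.10, edgeR adjusted p = 0.00466). F11, coagulation factor XI, rose by 0.83 and Ugt2b1, a glucuronosyltransferase, by 0.76 on the log2 scale (edgeR adjusted p = 0.00921 and 0.0376). Apoa4, an apolipoprotein that follows hepatic triglyceride, fell by 2.31 (edgeR adjusted p = 0.00141). F7, F11 and Apoa4 were called in all 8 leave-one-liver-out fits and Ugt2b1 in 3.

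LXR targets held 3 calls in 14, 21.4% against 5.15% of all genes. Abca1, the cholesterol efflux transporter and itself a known target of miR-33, rose from 298 ± 18.6 to 412 ± 47.5 CPM, while the phospholipid remodelling enzyme Lpcat3 fell by 0.41 and Smpdl3a, a phosphodiesterase, fell by 0.45 on the log2 scale (edgeR adjusted p = 0.0476 and 0.0406). Smpdl3a was called in 2 and Lpcat3 in 1 of the 8 leave-one-liver-out fits. The median over the list was 0.08. For FXR and LRH-1, 12 of 14 listed genes were tested, of which 1 rose and 3 fell (33.3% against 5.15%), with a median of 0.38. Cyp8b1, the sterol 12α-hydroxylase, fell from 217 ± 13.7 to 121 ± 29.5 CPM (log2 difference -0.84, edgeR adjusted p = 0.0168). Apoc2 fell by 0.87 and Abcb4, the phospholipid transporter of bile, by 0.54, whereas the plasma protein Fetub rose by 0.48 (edgeR adjusted p = 0.00946, 0.0151 and 0.0353). Fetub was called in 3 of the 8 leave-one-liver-out fits. DESeq2 called 7 of these genes, 4 of them higher.

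CAR and PXR targets had a median of -0.52, and 17 of 22 log2 differences were below 0, yet 2 rose and 2 fell among the called, 18.2% of the list against 5.15% of all genes. Cyp1a2, which the aryl hydrocarbon receptor also induces, was at 143.3, 143.4, 144.6 and 173 CPM in WT livers and at 303, 519, 562 and 702 CPM in HKO livers, a log2 difference of 1.79 (SE 0.23, edgeR adjusted p = 0.0046). Sult1d1, a sulfotransferase, rose by 0.63 (edgeR adjusted p = 0.0255) and was called in 3 of the 8 leave-one-liver-out fits. Gsta1, a glutathione transferase, fell by 3.85 and Aldh1a1, which makes retinoic acid, by 0.57 on the log2 scale (edgeR adjusted p = 0.0173 and 0.0143), and both were fractional in all 8 livers. With DESeq2, 12 of the 22 were called, 3 higher and 9 lower, against 8.18% of all genes, and with total count scaling 6, 2 higher and 4 lower.

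Lists of the hormone receptors held 1 call each. That was 5.88% of the glucocorticoid receptor targets, near the 5.15% of all genes, 9.09% of the thyroid hormone receptor targets and 12.5% of the retinoic acid receptor targets. Tat, the tyrosine aminotransferase that glucocorticoids induce, was at 451, 395, 604 and 636 CPM in WT livers and at 1153, 879, 795 and 995 CPM in HKO livers. Its log2 difference was 0.87 (SE 0.17, edgeR adjusted p = 0.0151) and it was called in all 8 leave-one-liver-out fits. It was the only call in 17 glucocorticoid receptor targets, which had a median of 0.38. Gpd2, the mitochondrial glycerol-phosphate dehydrogenase, fell by 0.49 (edgeR adjusted p = 0.0285) among 11 thyroid hormone receptor targets. Tgm2, a transglutaminase, fell by 0.48 (edgeR adjusted p = 0.0382) among 8 tested targets of the retinoic acid receptors. Both were called in few of the leave-one-liver-out fits, Gpd2 in 3 and Tgm2 in 2. These lists overlap in a few genes, which were counted under each.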

How the data were processed

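Livers were analysed by RNA-Seq. The submitters' processing notes name STAR and Partek, without versions. Per the file headers, the authors deposited estimated counts per gene from expectation-maximization quantification, which splits reads that match several genes, with no normalization. Of these values 80.3% were whole numbers, and all were rounded here. The stop coordinate listed was 1 base past the RefSeq end in 65.3% of genes, so ends are given less 1 base, on GRCm38. The labels name a small RNA kit together with rRNA depletion, and the type of library is therefore uncertain.

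Genotypes were compared with edgeR 4.0.16 in R 4.3.3 (TMM scaling, expression filter with a minimum count of 10, robust quasi-likelihood test, Benjamini-Hochberg adjustment over the 12395 genes tested, threshold 0.05). CPM uses TMM-scaled library sizes. Levels between genes were compared as CPM per kilobase of exon, with exon lengths from GENCODE M21; per-length counts scaled to a common total, the scale first planned, gave another rank to 2 of the 35 genes, Rxrg and Nr2c2. Alternatives were DESeq2 1.42.0, RLE and total count scaling, no expression filter, the replicate number as a block, and each liver left out in turn. Simulated counts for the 12395 genes tested the models: edgeR found 88% of genes with a log2 change of 2 and 70% of those with a log2 change of 1, and 8.14% of the genes it called had none. DESeq2 gave 90%, 72% and 16.1%. No smaller change was simulated, so these shares do not cover differences as small as those of Ppara, Hnf4a and Nr5a2. The floor of a library, 3 counts, was 0.149 to 0.255 CPM and covers counting error only.

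The receptors and all gene lists were chosen with earlier results of these data known. Values in every liver are given for receptors called by edgeR or DESeq2 or with no overlap between the genotypes. Of each list, at most the 4 called genes with the smallest adjusted p are named, and any other gene named was chosen after its values were seen. Seed matches were searched in the longest 3'UTR of GENCODE M21, and sequences of promoters and of miR-33 came from RefSeq on GRCm38.p6. Values of some listed genes are not reported here.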

Additional observations from a re-analysis of the deposited data

Results flagged for a closer look

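Groups of 4 livers, 81 in all, were made of the CPM of each receptor and the summed CPM of each marker list in each genotype. In 11 of them 1 liver lay far from its group. About 4 such groups would be found by chance if the groups were normal and independent. They share the same livers, so setting 11 beside 4 is no test. Among WT livers, Ppard was 3.42 CPM in replicate 2 against 2.98 to 3.03, Nr1i2 was 68.1 CPM in replicate 2 against 51.7 to 53.4, and Rarg was 1.12 CPM in replicate 4 against 2.30 to 2.39. WT replicate 3 was the highest in Hnf4a with 471 CPM against 435 to 441, in Nr5a2 with 79.8 CPM against 69.5 to 71.1, and in Nr3c1 with 164 CPM against 152 to 154. That liver is the WT liver nearest to the HKO values of Hnf4a and Nr5a2.

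Among HKO livers, replicate 2 had 0.849 CPM of Vdr against 0 in the others, 44.9 CPM of Nr1h3 against 39.6 to 40.1, and a summed level of 8 Kupffer cell and macrophage markers of 47.9 CPM against 130.7 to 146 CPM. Nr2f2 was 81.5 CPM in replicate 1 against 95.9 to 97.1, and Nr3c2 was 31.4 CPM in replicate 3 against 27.7 to 28.1.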

How the results depend on the processing

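Over all genes, 638 were called by edgeR, 740 with total count scaling and 1014 by DESeq2. The leave-one-liver-out fits called 222 to 599, fewest without WT replicate 2. The receptors called numbered 4, 2 with total count scaling, 3 without an expression filter and 1 to 3 in the fits without a liver, in all of which Pparg was called. The 4 livers whose loss left 1 call were HKO replicates 2 and 4 and WT replicates 1 and 2. Coregulators had 1 call, 0 with total count scaling and 0 to 1 without a liver (0 without HKO replicate 4 or WT replicates 1, 2 or 4). Calls of PPARα targets numbered 9 to 15 without a liver, fewest without WT replicate 2, and those of PPARγ targets 4 to 6.

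DESeq2 called 5 LXR, 7 FXR and LRH-1, 12 CAR and PXR, 3 thyroid hormone receptor, 2 glucocorticoid receptor and 7 HNF4α targets, where edgeR called 3, 4, 4, 1, 1 and 4. Total count scaling called 2 thyroid hormone receptor targets. Leaving out livers gave 0 to 2 LXR targets (0 without WT replicates 1 or 2, 1 without HKO replicates 1, 2 or 3), 2 to 5 FXR and LRH-1 targets (2 without WT replicates 1 or 2) and 1 to 7 CAR and PXR targets (1 without WT replicate 2, 7 without HKO replicate 3). It gave 0 to 3 thyroid hormone receptor targets (3 without HKO replicate 3, 2 without WT replicate 4, 1 without WT replicate 3, otherwise 0), 1 to 3 glucocorticoid receptor targets (2 and 3 without HKO replicates 3 and 4), 0 to 2 retinoic acid receptor targets (2 without WT replicate 4, 1 without HKO replicate 3, otherwise 0) and 3 to 7 HNF4α targets (7 without WT replicate 4). The cause of these differences was not tested, beyond the smaller number of livers.

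The labels use the replicate numbers 1 to 4 in either genotype, for different mice. Deviations from the group means correlated at -0.0624, 0.0116, -0.0847 and -0.148 between livers of the same number, and 0 of the 4 numbers correlated best with its own. No pairing of livers by number was seen, with only 4 livers per genotype to show it. With the replicate block 470 genes were called, with 1 receptor (Pparg), 1 LXR target, 7 CAR and PXR targets and 0 retinoic acid receptor targets.

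The direction changed with total count scaling for Rora (-0.0394), Nr1h3 (-0.00903), Nr1h4 (-0.0431), Nr2f2 (-0.0073) and Nr2f6 (-0.0511), none of them called. It also changed within the leave-one-liver-out range of Rarg (-0.0747 to 0.467), Thra (-0.0881 to 0.0789), Rora (-0.0206 to 0.0971), Nr1h4 (-0.0199 to 0.0956), Nr2c1 (-0.216 to 8.7e-05), Nr2f6 (-0.146 to 0.179) and Esrra (-0.127 to 0.0526), again with no call. Low counts limit what can be seen in Nr2f1, Nr4a1, Nr4a2, Hnf4g and Vdr.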
